A study of Mus musculus with 4 samples.

Results

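L5-Bcl6 was the excitatory subtype of the ventromedial prefrontal cortex (vmPFC) named for Bcl6, a zinc-finger transcriptional repressor. Its members were the neurons carrying this cluster name in the authors' cell annotation, matched to the count matrices by library and cell barcode. They numbered 382 of 9368 excitatory neurons, 135, 94 and 86 from unsorted replicates 1, 2 and 3 and 67 from the sorted library. The tissue was the prelimbic and infralimbic cortex of male C57BL/6 mice that received, at 8 weeks of age and on one side of the brain, rAAV2-retro viruses into 5 targets: the agranular insular cortex, dorsomedial striatum, mediodorsal thalamus, basolateral amygdala and lateral hypothalamus. Each virus carried EGFP and a barcode for its target, so animals of both groups were injected and none was an uninjected control. Cells were taken 6 weeks later for 10x Genomics 3' sequencing. The 3 unsorted libraries are titled by mouse, although the protocol states that the cells of these mice were loaded into 3 lanes, so that the spread between them may be technical. The sorted library pooled cells of 3 further mice that were gated for EGFP. EGFP was driven by a short CAG promoter, which is not specific to a cell type, and any difference between sorted and unsorted neurons cannot be told apart from one between these animals or libraries.

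Library totals were 54728191 to 87809114 unique molecular identifiers (UMIs, counted molecules), of which the L5-Bcl6 neurons held 2917199, 2350072 and 2218401 unsorted and 2036756 sorted. The 382 neurons carried 1429 to 48444 UMIs each (median 24825), and no cell barcode of L5-Bcl6 occurred in more than 1 library. The median UMIs per cell were 22498, 24720 and 25668 unsorted and 30447 sorted, against 21284, 22168, 23142 and 31796 in the other excitatory neurons. This difference of 1236 ± 1833 (SD, n = 4 libraries) was within the spread between libraries (exact two-sided sign-flip permutation test, p = 0.375, adjusted p = 0.375 over 3 measures). L5-Bcl6 made up 4.79%, 3.78% and 3.49% of the unsorted excitatory neurons and 4.18% of the sorted ones (Wilson 95% interval 3.30 to 5.27%, counting error only). The sorted share thus lay inside the range of the 3 unsorted libraries.

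Cortical excitatory neurons are grouped by where their axons go. Extratelencephalic (ET) neurons of layer 5 leave the telencephalon for the thalamus, hypothalamus, brainstem or spinal cord. Intratelencephalic (IT) neurons connect cortex, striatum and amygdala, corticothalamic (CT) neurons of layer 6 innervate the thalamus, and near-projecting (NP) neurons send few axons beyond the cortex. Fezf2 and Bcl11b (CTIP2) are transcription factors of the ET programme, and Bcl6 promotes cortical neurogenesis by silencing Notch targets. ET neurons of layer 5 are also known for their strong HCN current, which shapes how their dendrites integrate input.

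Bcl6 itself (chromosome 16, positions 23965052 to 23988852, minus strand, GRCm38) checked the label. Its level, in CPM (counts per 1000000 UMIs) scaled across the 7 subtypes and 4 libraries, was 62.3, 62.6 and 65.9 in the unsorted and 61.3 in the sorted L5-Bcl6 neurons. In the other 6 subtypes the mean over libraries ran from 0.167 to 4.97 CPM, with L5-S100b the nearest. The libraries of L5-Bcl6 therefore stood within a few CPM of each other and far from every other subtype. At least 1 Bcl6 UMI was found in 44.1% of the L5-Bcl6 cells with 10000 or more UMIs (161 of 365, each thinned to 10000 UMIs) and in 1.49% of the other excitatory neurons (130 of 8733). Since the clusters were made from these genes, differences in gene level between L5-Bcl6 and other subtypes below are descriptions without a test. Only the mitochondrial share, the viral barcode and the sort difference were tested against other neurons below.

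RefSeq gives Bcl6 a pair of start sites, and the 250 bases before each are shown because the gene names the subtype. They lie on the minus strand of GRCm38.p6, the first at chr16:23988853-23989102, directly before the gene as annotated, and the second at chr16:23981284-23981533, inside its intron. GC content was 58.4% and 54.8%. Capitals mark a TTCCTNGAA letter pattern, a form of the motif that BCL6 and STAT factors share; it was searched on both strands and was chosen after this sequence had been seen.
Bcl6, first start: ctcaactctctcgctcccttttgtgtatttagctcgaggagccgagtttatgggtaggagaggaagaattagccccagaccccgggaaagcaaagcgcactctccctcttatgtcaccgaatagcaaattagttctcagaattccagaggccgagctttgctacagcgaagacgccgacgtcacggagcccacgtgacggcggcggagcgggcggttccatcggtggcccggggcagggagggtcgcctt
Bcl6, second start: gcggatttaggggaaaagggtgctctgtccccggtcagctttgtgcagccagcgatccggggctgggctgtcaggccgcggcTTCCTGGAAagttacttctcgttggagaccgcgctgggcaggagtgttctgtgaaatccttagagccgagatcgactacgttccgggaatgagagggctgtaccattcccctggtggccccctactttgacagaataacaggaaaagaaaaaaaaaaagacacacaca
The pattern occurred in 430 of 32851 promoter windows of RefSeq (1.31%) and in 2 of 87 windows of the genes that led in L5-Bcl6 (2.30%). The 2 were those of Arhgap28 and of Bcl6, the sequence after which the pattern was chosen. The 87 windows covered 74 of the 106 leading genes, and Pou3f1, Fam84b, Ndnf and Wnt5a were among those without a window. The octamer ATGCAAAT, which POU-domain factors such as Pou3f1 bind, was in 526 windows of the genome (1.60%) and in 0 of the 87. A match is a string of letters and not a shown binding site.

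Genes that led in L5-Bcl6, meaning at least 1 on the log2 scale above every other subtype, numbered 106 of 12876 (0.823%), and 242 (1.88%) lay as far below every other one. The 12 leading genes of largest gap at 20 CPM or more were Ndnf, Fam84b, Adamts2, Tns1, Gprc5b, Bcl6, Igfbp4, Pou3f1, Oma1, Wnt5a, Reln and Cd55. Pou3f1 (chromosome 4, 124656807 to 124660655), a POU-domain transcription factor, measured 283, 329 and 288 CPM in the unsorted and 209.6 CPM in the sorted L5-Bcl6 neurons, against 38.3 CPM in L2/3-Calb1 and 0.812 to 6.03 CPM in the other 5. It was 6.31 above all other excitatory neurons on the log2 scale (6.12 to 6.57 within single libraries). No library of L5-Bcl6 came near a level of another subtype. Fam84b (chromosome 15, 60818994 to 60853778) measured 51.1, 50.0 and 44.1 CPM and, sorted, 39.0 CPM, whereas no other subtype exceeded 1.83 CPM. Adamts2, which trims procollagen, measured 62.6, 74.8 and 62.2 CPM and, sorted, 91.5 CPM, with at most 3.12 CPM elsewhere.

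Several of these genes encode secreted or surface proteins. Igfbp4 binds insulin-like growth factors, and its 268, 256 and 244 CPM unsorted and 229 CPM sorted stood next to 34.4 CPM in L6-Syt6. Ndnf, a secreted factor better known from layer 1 interneurons, had 23.1, 15.6 and 22.7 CPM unsorted and 25.1 CPM sorted, and no other subtype averaged above 0.890 CPM. Reln, the secreted positioning cue reelin, had 32.2, 30.9 and 32.0 CPM unsorted and 47.4 CPM sorted, against 6.25 CPM in L2/3-Calb1. The morphogen Wnt5a averaged 40.1 ± 5.78 CPM (SD, n = 4) and the complement regulator Cd55 20.5 ± 5.25 CPM, at most 6.68 and 4.60 CPM elsewhere. The orphan receptor Gprc5b averaged 52.3 ± 12.7 CPM, next to 5.01 CPM in L5-Htr2c. Tns1, which links actin to integrins, averaged 21.2 ± 4.98 CPM, and Oma1, a protease of the inner mitochondrial membrane, 32.6 ± 2.22 CPM. In all 12, the lowest L5-Bcl6 library was above the mean of each other subtype. The subtype nearest below the 106 leading genes was L2/3-Calb1 for 29, L5-S100b and L5-Htr2c for 20 each, L6-Syt6 for 15, L2/3-Rorb for 12 and L6-Npy for 10. At the limit of 1, Nrip1 and Nt5dc3 (both 1.00) were the last inside and Spink10 and Klhl25 (both 0.99) the first outside.

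**Figure D1:**
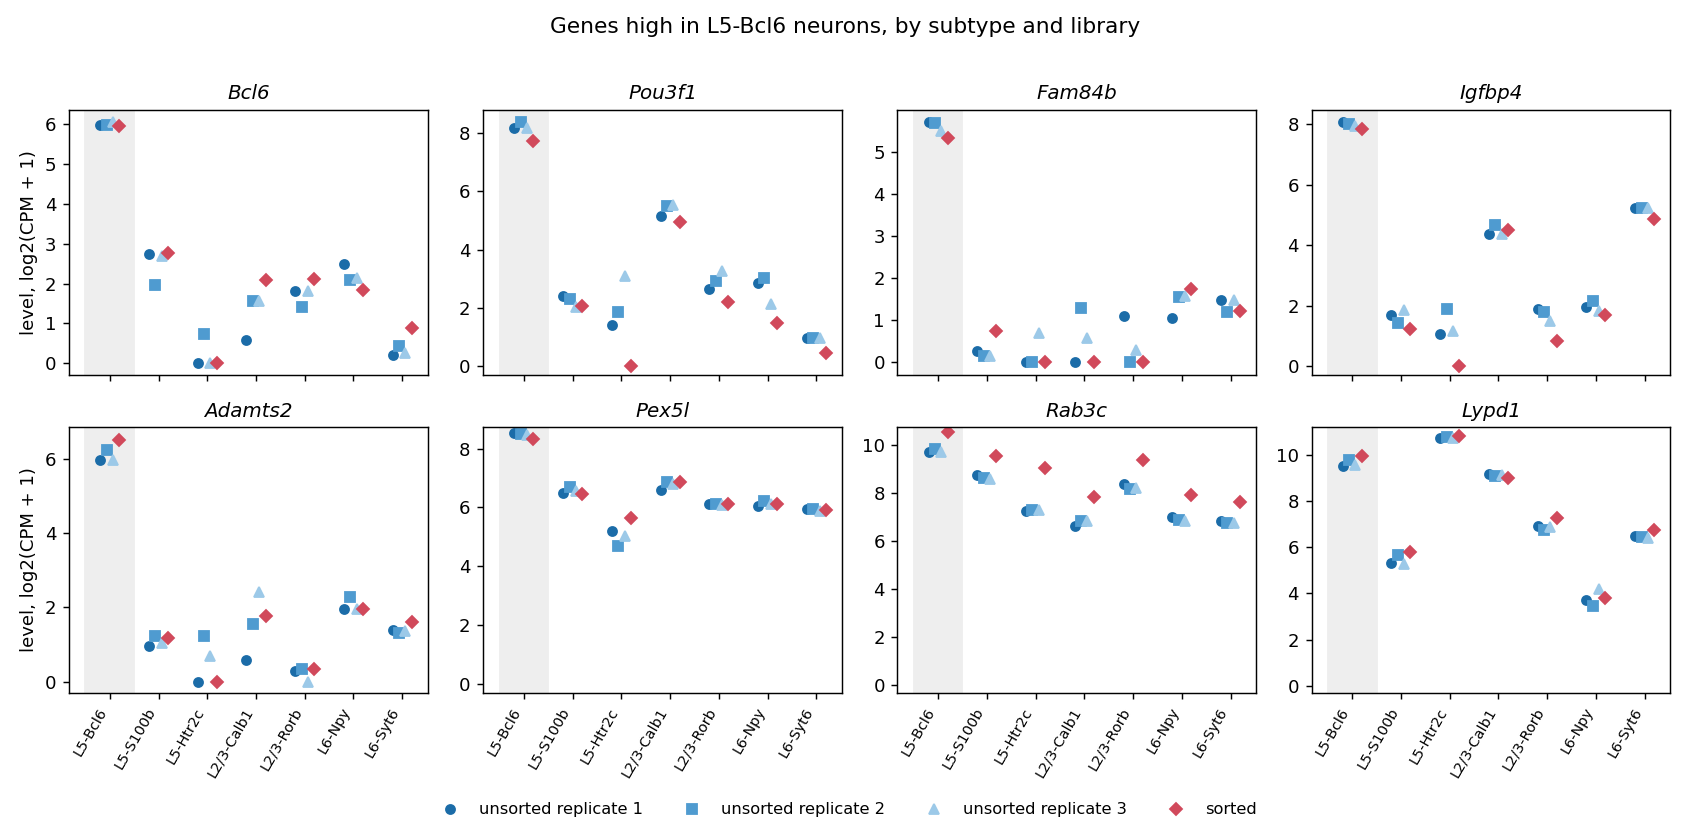
Levels of 8 genes (vertical axes, log2 of CPM + 1) in the 7 excitatory subtypes (horizontal axes), with 1 point per library and the L5-Bcl6 column shaded. Bcl6, Pou3f1, Fam84b, Igfbp4, Adamts2, Pex5l and Rab3c were highest in L5-Bcl6 in every library, whereas the near-projecting marker Lypd1 was higher in L5-Htr2c (1741 CPM on average) than in L5-Bcl6 (829.6 CPM).

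Among genes averaging at least 20 CPM over all subtypes and libraries, the 8 farthest below every other subtype are given next. Ncald, a neuronal calcium sensor, had 86.0, 63.5 and 79.8 CPM in the unsorted and 95.3 CPM in the sorted L5-Bcl6 neurons, against 586 to 1811 CPM in the other subtypes, a gap of -2.83 on the log2 scale to the nearest one. Every other subtype thus carried several times more. Adcyap1r1, the receptor of the peptide PACAP, averaged 2.38 ± 1.67 CPM against 16.6 to 113 CPM, and Rgs8, which speeds the turn-off of G proteins, averaged 1.48 ± 1.72 CPM against 15.1 to 73.1 CPM. Samd5 (1.23 CPM against 24.2 to 94.9), Col25a1, a transmembrane collagen (2.43 against 18.0 to 73.4), the palmitoyltransferase gene Zdhhc22 (8.69 against 52.6 to 189.9), Gm11549 (4.39 against 27.3 to 93.8) and Trbc2 (2.97 against 16.1 to 334) completed the 8.

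Against the sum of all other excitatory neurons of the same library, 643 of 15324 genes (4.2%) were higher in L5-Bcl6 and 1521 (9.93%) lower. A call needed a fitted difference of at least 1 on the log2 scale and the same direction in 4 of 4 libraries. The median over all genes was -0.03. More than one subtype enters the sum of the others, and L6-Syt6 gives most of its cells (5092). With the 6 other subtypes weighted equally, 599 of 12876 genes were higher and 857 lower. Of 13 measured ET markers, 9 were higher and 0 lower (median 1.66), and 5 led over every other subtype (Bcl6, Pou3f1, Fam84b, Npr3 and Parm1). Fezf2 had 235, 277 and 273 CPM unsorted and 203 CPM sorted, a level also reached by L5-Htr2c (259 CPM) but not by L5-S100b (60.9 CPM). Bcl11b had 433, 484 and 455 CPM unsorted and 583 CPM sorted, next to 362 CPM in L5-Htr2c and 32.2 CPM in L5-S100b. Npr3, the clearance receptor of natriuretic peptides, averaged 64.6 ± 13.1 CPM, Parm1 179 ± 32.6 CPM and Tmem163 16.8 ± 2.51 CPM. Ldb2 (0.99 on the log2 scale), Etv1 (0.89), Slco2a1 (0.16) and Crym (0.15) stayed under the limit, and Chrna6 had 0 UMIs in the 382 neurons, which allows up to 0.785% of cells with a UMI.

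Etv1, the marker used to assign layer 5, averaged 251 ± 33.4 CPM in L5-Bcl6, below L5-Htr2c (884 CPM) and L5-S100b (464 CPM) and above the 4 subtypes of layers 2/3 and 6 (18.1 to 80.4 CPM). The markers of the other classes were mostly low. Of 13 IT markers 2 were higher and 7 lower (median -1.21), of 8 NP markers 1 higher and 7 lower (median -3.39), of 11 CT markers 0 higher and 6 lower (median -2.72), and of 6 layer 6b markers 0 higher and 5 lower (median -4.79). With the 6 other subtypes weighted equally these medians were -0.46 (IT), -2.68 (NP), -0.27 (CT) and -2.07 (layer 6b), so the CT and IT medians lay much nearer 0. The superficial-layer marker Cux2 averaged 1.87 CPM, the CT markers Foxp2 and Syt6 16.1 and 1.64 CPM (against 262 and 151 CPM in L6-Syt6), and the NP markers Htr2c and Tshz2 1.55 and 2.88 CPM (against 299 and 1099.5 CPM in L5-Htr2c). Slc17a8 had 0 UMIs.

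A few markers of other classes were nevertheless shared. Lamp5, an IT marker of upper layers, had 147, 149 and 163 CPM unsorted and 156 CPM sorted in L5-Bcl6, and 153 CPM in L2/3-Calb1, whereas the remaining subtypes had 1.45 to 32.4 CPM. The cell adhesion gene Cdh13, also among the IT markers, averaged 354 ± 56.6 CPM, next to 299 CPM in L6-Npy. Lypd1, an NP marker and a modulator of nicotinic receptors, had 721, 868 and 757 CPM unsorted and 973 CPM sorted, second to L5-Htr2c (1741 CPM). The other name-giving genes were lower than in the subtype each names: Calb1 4.80, Rorb 18.4, S100b 4.67 and Npy 1.57 CPM. Rorb was above its level in L2/3-Calb1 (7.94 CPM), L6-Npy (2.42 CPM) and L6-Syt6 (3.30 CPM). Its log2 difference was -0.76 to the summed others and 0.25 with equal weights. S100b was lower than in the summed other neurons (-1.23 on the log2 scale) but higher, by 0.31, when the 6 subtypes were weighted equally.

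**Figure D2:**
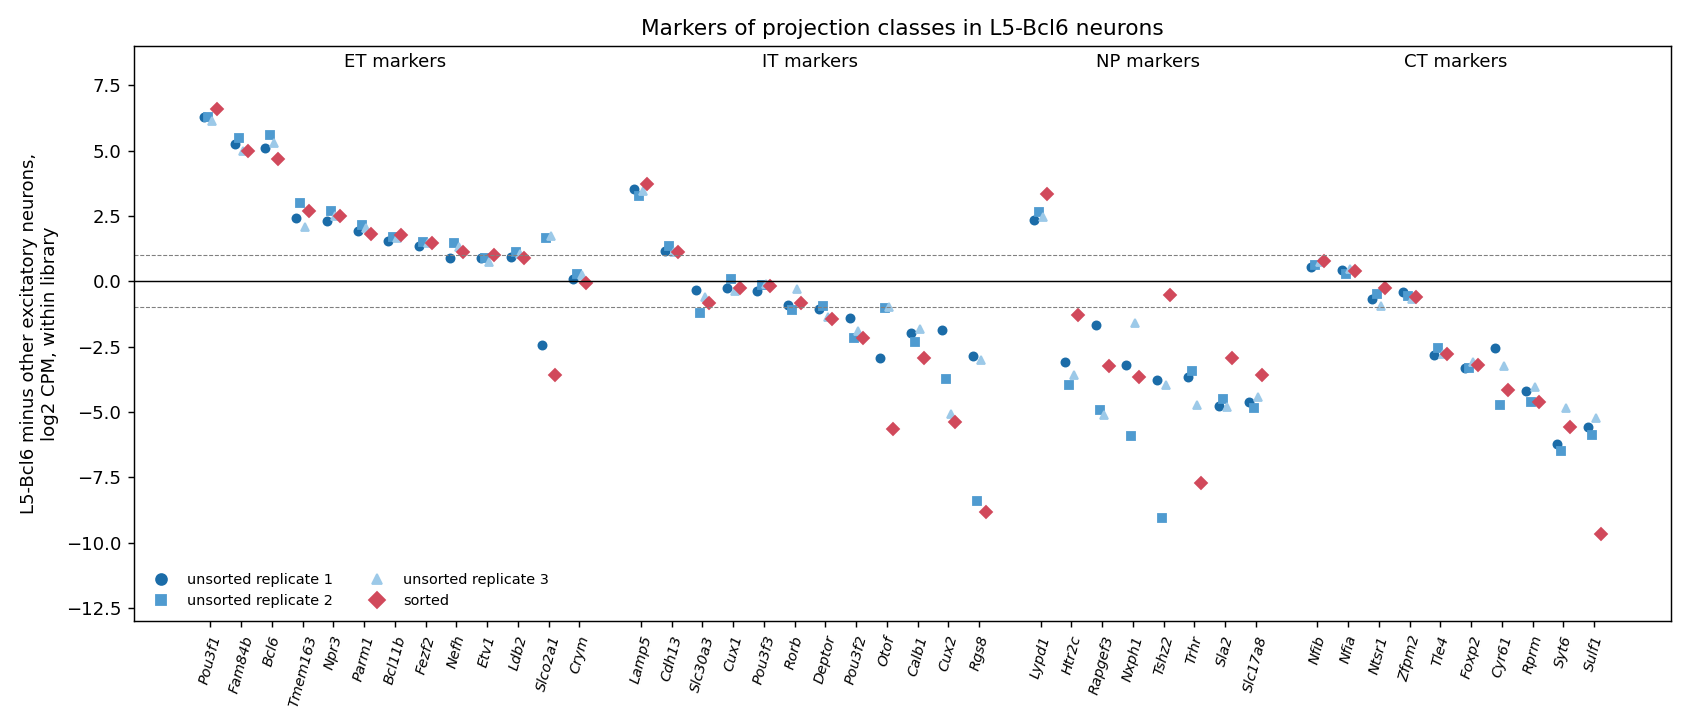
Within-library differences (vertical axis, log2 CPM of L5-Bcl6 minus log2 CPM of the other excitatory neurons) for measured markers of 4 projection classes (horizontal axis), with 1 point per library and dashed lines at 1 and -1. 9 of 13 ET markers were called higher, with a fitted difference of at least 1 and all 4 libraries above 0. Called lower were 7 of 8 NP markers, all but Lypd1, and the CT markers Sulf1, Syt6, Rprm, Cyr61, Foxp2 and Tle4.

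Markers of microglia and inhibitory neurons were scarce among the L5-Bcl6 UMIs, whereas those of oligodendrocytes were not. The 6 microglial markers summed to 9.02 to 15.3 CPM (not scaled between libraries) unsorted and 1.47 sorted, and the 8 inhibitory markers to 5.96 to 12.3 and 0.982. The 6 oligodendrocyte markers summed to 113 to 140 CPM in L5-Bcl6 and 55.8 to 62.8 in the other excitatory neurons, groups that did not overlap. Most of these UMIs came from Mbp (92.7, 112 and 100.2 CPM unsorted, 116 sorted), whose level in L5-S100b was 96.6 CPM. The 6 endothelial and mural markers summed to 26.5 to 37.0 in L5-Bcl6 and 15.4 to 23.0 in the rest, again without overlap, and the 5 astrocyte markers to 2.45 to 9.02 and 1.46 to 4.47. The part of these cells in other differences was not tested. Slc17a7, the vesicular glutamate transporter of cortical excitatory neurons, averaged 887 ± 49.2 CPM, within the range of the other subtypes (719 to 1341 CPM).

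The counts of the lists that follow stand beside 4.2% of all genes higher and 9.93% lower. Among 38 transcription factors of projection neurons, 6 were higher and 10 lower (median -0.26). The 6 were Pou3f1, Neurod1, Bcl11b, Bhlhe22, Fezf2 and Id2. Neurod1 averaged 43.0 ± 2.69 CPM and Bhlhe22 90.9 ± 11.5 CPM, both basic helix-loop-helix factors that L2/3-Calb1 also held (50.6 and 258 CPM). Neurod6, of the same family, was instead below every other subtype, with 45.1, 48.7 and 52.4 CPM unsorted and 30.7 CPM sorted against 111 to 339 CPM. Tbr1, a corticothalamic determinant, averaged 99.9 ± 5.08 CPM against 359 CPM in L6-Syt6. Of the 12 BCL6 partners and repressors of its family, Bcl6 and Bcl6b (3.44 ± 1.38 CPM) were higher and the co-repressor Bcor (10.6 ± 2.24 CPM, others 17.7 to 31.8) lower, with a median of 0.06. Of 14 Notch pathway genes 0 were higher and 5 lower (Nrarp, Hes5, Dll3, Maml3 and Hey2; median -0.50). Hes5, a Notch target, averaged 0.291 ± 0.349 CPM, under the 0.315 CPM that 3 UMIs over the 4 libraries give, and Hey1 45.0 ± 2.15 CPM against 14.8 to 74.1 CPM in the others.

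Ion channel genes lay on both sides. Pex5l, whose product TRIP8b sets HCN channel trafficking, had 368, 361 and 348 CPM unsorted and 322 CPM sorted, above every other subtype (35.2 to 109 CPM) without overlap. Of 29 sodium and calcium channel genes, Cacna1h, Cacna2d3 and Scn1a were higher and Cacng2 lower (median 0.11). Cacna1h, a low-threshold calcium channel, averaged 73.2 ± 6.86 CPM against 4.64 to 24.9 CPM, and the AMPA receptor auxiliary Cacng2 31.1 ± 13.7 CPM against 87.7 to 137 CPM. Of 52 potassium channel genes 5 were higher and 8 lower (median 0.05). Kcnn2, a calcium-activated SK channel, had 125, 131 and 115 CPM unsorted and 113 CPM sorted against 18.3 to 39.6 CPM elsewhere, and the modulatory subunit Kcng2 averaged 19.7 ± 4.30 CPM against 1.47 to 7.52 CPM. The leak channel Kcnk2 was nearly missing, at 0.487 ± 0.431 CPM, where L5-Htr2c had 224 and L2/3-Rorb 99.0 CPM.

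Of 23 glutamate receptor genes, the kainate receptor Grik2 was higher (116 ± 11.4 CPM against 29.6 to 56.9 CPM) and 5 were lower (median 0.05), the 1 of 23 being near the share of all genes, and of 14 GABA receptor genes Gabra2 and Gabrg1 were higher and 0 lower (median 0.01). Gabra2 averaged 279 ± 23.6 CPM, below L2/3-Calb1 (357 CPM). Of 25 monoamine and acetylcholine receptor genes 1 was higher and 9 lower (median -0.14, or 0.09 with the 6 subtypes weighted equally). The higher one was the serotonin receptor Htr4 (5.95, 4.35 and 8.35 CPM unsorted, 6.97 CPM sorted), which L5-Htr2c shared (7.57 CPM). The dopamine receptor Drd1 averaged 1.04 ± 0.459 CPM against 1.99 to 69.2 CPM in the others, and the serotonin receptor Htr2a 1.71 ± 0.438 CPM.

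Of 35 neuropeptide and peptide receptor genes 4 were higher and 13 lower (median -0.48, or 0.18 with equal weights). Pdyn, the precursor of dynorphin, had 31.8, 42.2 and 53.3 CPM unsorted and 36.7 CPM sorted, a level shared with L2/3-Calb1 (39.2 CPM) and at most 1.33 CPM in the rest. Single cells held 56 of the 97 Pdyn UMIs of unsorted replicate 2 and 77 of the 115 of replicate 3, so these levels rest largely on 1 cell each. Adcyap1, the precursor of PACAP, averaged 45.1 ± 7.26 CPM, next to 54.0 CPM in L2/3-Rorb, while its receptor was among the 8 lowest genes above. Mc4r, the melanocortin receptor, averaged 8.72 ± 1.78 CPM and at most 2.75 CPM elsewhere. The lower ones included the opioid receptors Oprk1, Oprm1 and Oprd1.

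Of 51 axon guidance genes 14 were higher and 11 lower (median 0.26). The higher ones included the Slit receptors Robo1, Robo2 and Robo3, the ligands Slit2 and Slit3, 4 Eph receptors and 2 ephrins. Robo1 had 87.1, 79.5 and 80.2 CPM unsorted and 97.1 CPM sorted, above every other subtype (13.5 to 41.5 CPM). Ntng1, netrin-G1, had 154, 169 and 155 CPM unsorted and 280.2 CPM sorted, above L5-S100b (89.8 CPM). Among the lower ones, Slit1 averaged 5.53 ± 1.01 CPM against 19.4 to 65.9 CPM, the semaphorin co-receptor Nrp2 13.3 ± 2.87 CPM against 32.2 to 63.8 CPM, and Sema5a 3.46 ± 2.43 CPM where L6-Syt6 had 190.5 CPM. Of 26 cadherins and protocadherins 9 were higher and 7 lower (median 0.12). Pcdh8 (85.5 ± 12.5 CPM), Cdh7 (63.8 ± 11.2 CPM) and Cdh22 (22.3 ± 0.615 CPM) stood at levels close to L2/3-Calb1 (94.6, 65.8 and 29.9 CPM), and Pcdh10 was below every other subtype (138 ± 21.3 against 300.0 to 499 CPM).

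Of 31 genes of synaptic vesicle release 4 were higher and 5 lower (median -0.26). Rab3c, a vesicle GTPase, had 851, 908 and 835 CPM unsorted and 1492 CPM sorted against 132 to 487 CPM, and the calcium sensor Doc2b averaged 30.7 ± 3.32 CPM against 0.183 to 8.96 CPM. Of 18 calcium-binding protein genes 1 was higher and 6 lower (median -0.37, or 0.07 with equal weights), with Hpca at 34.2 ± 7.86 CPM against 63.2 to 509 CPM. Of 18 immediate early genes 1 was higher and 9 lower (median -0.92, or -0.52 with equal weights). Fos had 233, 148 and 242 CPM unsorted and 176 CPM sorted against 240.2 to 722 CPM, and Arc averaged 66.4 ± 18.0 CPM against 77.9 to 361 CPM. The slices had been incubated with blockers of AMPA and NMDA receptors and digested with enzymes before sequencing, and the part of this handling in these levels was not tested. Neither of the respiratory chain lists reached the limit in any member (26 nuclear genes, median -0.08, or 0.14 with equal weights, and 13 mitochondrial genes, median 0.26). The median mitochondrial share of UMIs per cell was nevertheless higher in L5-Bcl6 in 4 of 4 libraries (8.12%, 8.25% and 8.14% unsorted and 4.32% sorted, against 6.47%, 6.48%, 6.46% and 3.41%), a difference of 1.50 ± 0.399 percentage points (SD, n = 4). The exact permutation p was 0.125 (adjusted 0.375), the smallest that 4 libraries allow before adjustment. The high share was not particular to L5-Bcl6. L6-Npy had 8.13% to 8.31% unsorted and 4.52% sorted, and was below L5-Bcl6 only in unsorted replicate 2. L6-Syt6, which gives most of the other cells, had the lowest share of the 7 subtypes in each library (2.73% sorted).

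Across 12876 genes the summed profile of L5-Bcl6 was most like that of L5-S100b, with a Pearson correlation of 0.923 of log2 levels on average over libraries. L6-Npy followed with 0.908, L6-Syt6 with 0.903, L2/3-Calb1 with 0.900, L2/3-Rorb with 0.899 and L5-Htr2c with 0.831. These values share libraries and depth and are across genes, which are not independent replicates. Only 4 sorted cells belonged to L5-Htr2c, so its sorted levels were read at low depth.

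The markers did not occur together in every cell. Of the 365 L5-Bcl6 neurons with at least 10000 UMIs, thinned to that number, 304 (83.3%) had a Pou3f1 UMI, 144 (39.5%) had both Pou3f1 and Bcl6, 160 had Pou3f1 alone and 17 Bcl6 alone. In 44 (12.1%) neither was seen, and in 8 (2.19%) none of Bcl6, Pou3f1, Fam84b, Adamts2 and Igfbp4. Among the 8733 other excitatory neurons, 250 (2.86%) had Pou3f1 and 9 (0.103%) had both. Of microglia, which should lack Pou3f1 and were read less deeply (median 4136 to 7130 UMIs), 3.86% had a Pou3f1 UMI without thinning and 15.3% a Bcl6 UMI. The joint presence of both genes was thus rare outside L5-Bcl6, while the absence of a UMI in a single cell at this depth does not show that a gene was off.

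Within L5-Bcl6, some genes varied between cells far more than counting would give. Pdyn was the most uneven of the genes with a mean of at least 0.3 UMIs (variance 11.5 times its mean), with a UMI in 50 of 365 cells (13.7%), and the single cells rich in Pdyn named above enter this ratio. Its share was 14.9%, 12.8% and 10.7% unsorted and 16.7% sorted, so cells with a Pdyn UMI were seen in every library. Whether a single UMI came from the cell itself was not tested, here or for Slc30a3 and Dlk1 below. The genes followed here were chosen after their values had been seen, and their correlations, over 365 thinned cells and given as the range over the 4 libraries, share library and depth. Pou3f1 went with Fezf2 (r 0.35 to 0.54) and against the vesicular zinc transporter Slc30a3 (r -0.47 to -0.33). Slc30a3 went with Nptx1 (0.41 to 0.53) and Cplx2 (0.41 to 0.57). Bcl6 was only weakly related to Pou3f1 (0.05 to 0.17), which in sparse counts is no finding.

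Cells with a Slc30a3 UMI numbered 84 of 365 (23.0%). They averaged 1.44 Pou3f1 UMIs against 2.90 in the other L5-Bcl6 cells, 1.32 against 2.68 for Fezf2 and 2.09 against 5.74 for Lmo4, all lower in 4 of 4 libraries. The peptide gene Cck averaged 11.9 against 4.72, the complexin Cplx2 4.21 against 1.35 and Nptx1 2.61 against 0.595, all higher in 4 of 4. Slc30a3 cells also had fewer UMIs before thinning in each library (medians 21242, 19589, 23055 and, sorted, 26420, against 23837, 24949, 27478 and 31208). Their barcode share after thinning was 71.0%, 64.3%, 62.5% and, sorted, 66.7%, against 83.3%, 70.0%, 70.0% and 80.4%.

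Cells with Dlk1, a membrane protein related to Notch ligands, numbered 61 (16.7%). These cells also had fewer UMIs before thinning in each library (medians 22498, 22226, 22851 and, sorted, 26111, against 23577, 25122, 27169 and 31179). They averaged 11.7 against 2.38 UMIs of the imprinted gene Nnat, 0.938 against 0.327 of Reln and 2.20 against 0.674 of the neurotrophin Bdnf, but 0.0993 against 1.19 of the peptide gene Grp and 0.379 against 0.837 of Adamts2, each in the same direction in 4 of 4 libraries. Slc30a3 and Dlk1 themselves were not related in a fixed direction (r -0.15 to 0.20). Cells with Pdyn carried more of the secretory genes Scg2 (0.896 against 0.200) and Vgf (2.64 against 0.784) and more Bdnf (2.63 against 0.677), again in 4 of 4 libraries. Pou3f1 was nearly equal with and without Pdyn (2.51 and 2.61 UMIs).

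**Figure D3:**
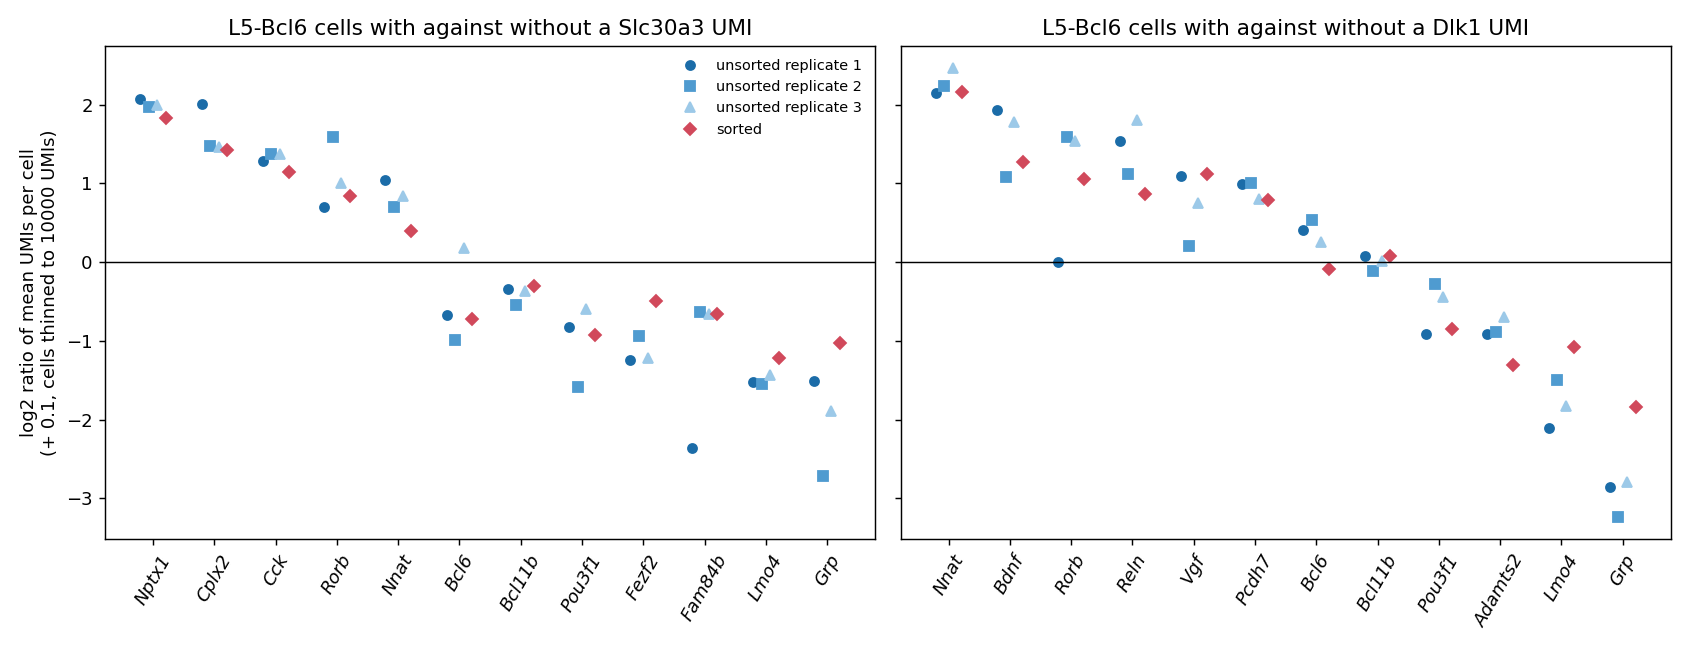
Log2 ratios (vertical axes, mean UMIs per cell plus 0.1, cells thinned to 10000 UMIs) of L5-Bcl6 cells with against without a Slc30a3 UMI (left) and with against without a Dlk1 UMI (right) for 12 genes each (horizontal axes), with 1 point per library. Nptx1, Cplx2 and Cck lie above 0 and Pou3f1, Fezf2, Lmo4 and Grp below 0 in each library on the left, and Nnat, Bdnf and Reln above and Lmo4 and Grp below on the right.

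The viral barcode was read as 1 pooled feature that does not separate the 5 targets. At least 1 barcode UMI was found in 83.7%, 79.8% and 76.7% of unsorted and 92.5% of sorted L5-Bcl6 neurons, against 59.6%, 55.8%, 58.3% and 87.4% of the other excitatory neurons. The share was higher in 4 of 4 libraries, by 17.9 ± 8.95 percentage points (SD, n = 4, exact two-sided sign-flip permutation test, p = 0.125, the smallest that 4 libraries allow), so it cannot pass a threshold of 0.05 here. After thinning to 10000 UMIs the difference was 16.1 points, and 20.6 with 5 or more UMIs required. The thinned share of L5-Bcl6, 80.2%, 69.1% and 67.9% unsorted and 77.3% sorted, overlapped those of L6-Npy (65.7% to 71.5%), L2/3-Rorb (71.1% to 81.6%) and L5-S100b (79.7% to 85.2%), and it was above L6-Syt6, the most numerous subtype, in each library (43.2%, 41.1%, 40.4% and, sorted, 72.8%). Microglia, which should not be labelled, had a barcode UMI in 3.17% to 4.02% of unsorted cells and in 19.6% of 46 sorted cells, which had a median of 7130 UMIs.

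In unscaled CPM, L5-Bcl6 held 1280, 837 and 974 of barcode unsorted and 592 sorted. The sorted value was thus the lowest, although the sort was for EGFP. It was also the lowest in L5-S100b (483 against 959 to 1206), L2/3-Rorb (678 against 951 to 1216), L6-Npy (238 against 390 to 484) and L2/3-Calb1 (243 against 293 to 308). In L6-Syt6 (341 against 203 to 252) and L5-Htr2c it was the highest. The 5 L5-Bcl6 cells richest in barcode held 33.0%, 31.3%, 37.2% and, sorted, 50.4% of the barcode UMIs of L5-Bcl6. Compared with each other subtype in the same library (6 pairs), the level was higher in 4 of 4 libraries than in L5-Htr2c (68.7, 33.3, 11.9 and, sorted, 4.85 times), L6-Syt6 (5.09, 4.12, 4.13 and 1.74 times), L2/3-Calb1 (4.18, 2.86, 3.17 and 2.43 times) and L6-Npy (2.65, 2.15, 2.11 and 2.48 times). Each of these 4 had an exact permutation p of 0.125, or 0.1875 after Benjamini-Hochberg adjustment over the 6. Against L5-S100b the ratios were 1.34, 0.806, 0.808 and 1.23 (p = 1.0, exact) and against L2/3-Rorb 1.14, 0.881, 0.801 and 0.873 (p = 0.375, exact, adjusted 0.45), so that their ranges crossed 1.

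**Figure D4:**
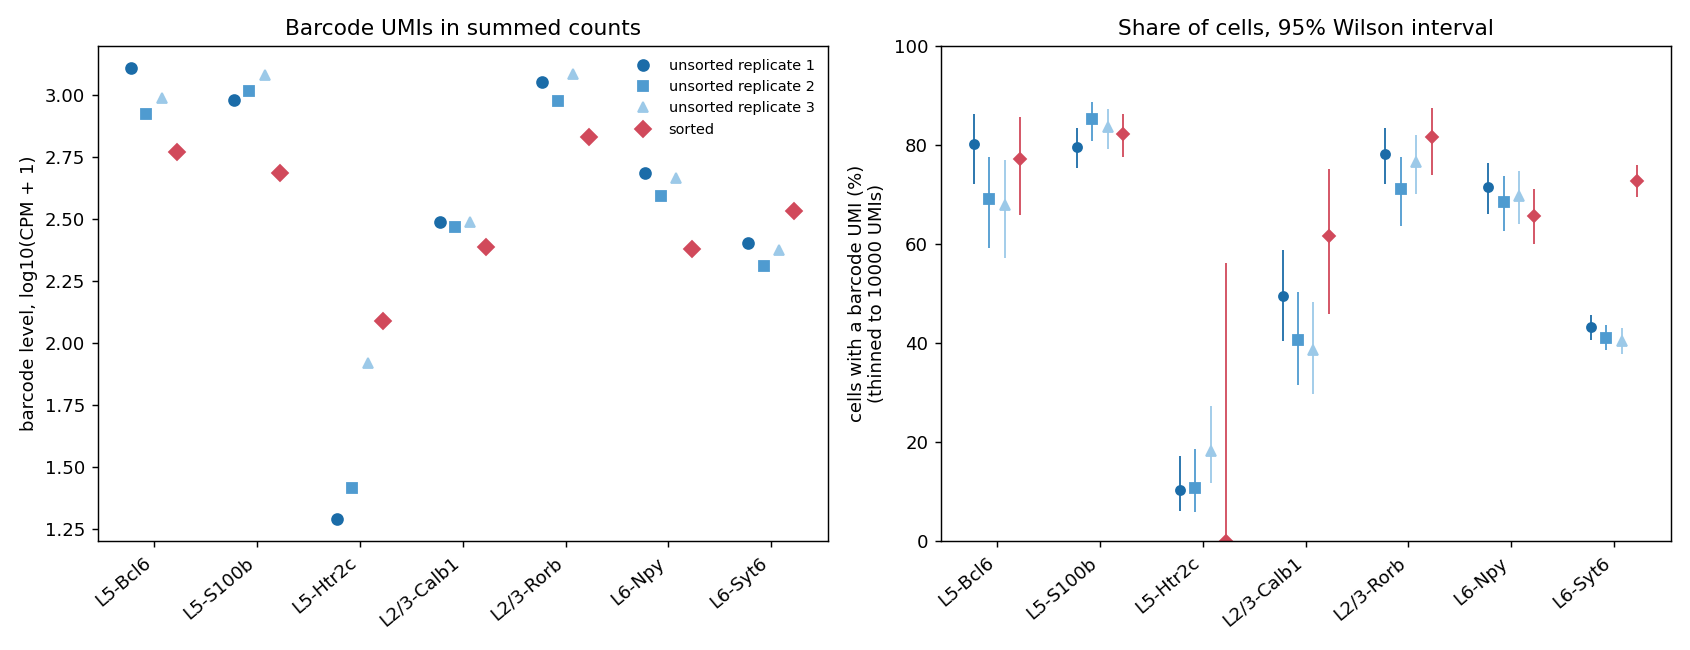
Viral barcode in the 7 subtypes (horizontal axes): left, barcode level in CPM of summed counts (log10 of the value plus 1), and right, percent of cells with a barcode UMI after thinning to 10000 UMIs with 95% Wilson intervals, 1 point per library. L5-Bcl6, L5-S100b and L2/3-Rorb sit together at the top left, and the thinned share of L5-Bcl6 ran from 67.9% to 80.2%.

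Sorted and unsorted L5-Bcl6 neurons were then compared. The authors had regressed sort status out of the scaled values before clustering, so the members were assigned on values adjusted for it, whereas the test used the counts without that adjustment. Of 11039 genes, 581 (5.26%) were higher and 925 (8.38%) lower in the sorted library (edgeR quasi-likelihood test, Benjamini-Hochberg adjusted p under 0.05 and at least 0.5 on the log2 scale), with a median of 0.00. DESeq2 called 207 and 519. The single sorted library was assumed to vary like the unsorted ones. Of 106 leading genes 100 were tested, of which 10 were higher and 3 lower (median 0.13). Bcl6 differed by -0.02 (SE 0.156, adjusted p = 0.935) and Pou3f1 by -0.49 (SE 0.101, adjusted p = 4.32e-05), the latter under the size limit although the sorted library (209.6 CPM) was below all 3 unsorted ones. Gprc5b was higher by 0.63 (SE 0.159, adjusted p = 0.00108), Reln by 0.60 (SE 0.185, adjusted p = 0.00973) and Ntng1 by 0.84 (SE 0.0971, adjusted p = 5.61e-13). Of 12 ET markers tested 0 were called by edgeR (7 at an unadjusted p under 0.05).

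Many genes of the respiratory chain were lower after the sort. Of 26 nuclear genes of oxidative phosphorylation 17 were lower and 0 higher in sorted L5-Bcl6 neurons (median -0.68), and of 13 mitochondrial genes 6 were lower and 1 higher (median -0.48). Cox5a, a subunit of cytochrome c oxidase, had 529, 572 and 581 CPM unsorted and 222 CPM sorted (-1.31 on the log2 scale, SE 0.0981, adjusted p = 1.30e-24). The mitochondrial gene mt-Co3 had 17522, 16692 and 16778 CPM unsorted and 4674 CPM sorted (-1.84, SE 0.0629, adjusted p = 7.27e-61), whereas mt-Atp8 was higher (1.24). The sorted library was outside the unsorted range in each of these. The mitochondrial share was also lower in the sorted library outside L5-Bcl6 (above). In the interaction test described below, edgeR called 0 of the 26 and 0 of the 13 genes different from the other excitatory neurons. Over all genes 0.0987% were called higher and 0.247% lower, so 0 calls in lists of this size settle nothing. At an unadjusted p under 0.05 were 12 of the 26 and 1 of the 13, beside 1237 of 16208 genes.

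Some genes of excitability and release were higher in the sorted neurons, beside 5.26% of all genes. Of 26 vesicle release genes 7 were higher and 0 lower (median 0.32), of 46 potassium channel genes 6 higher (median 0.26), of 29 sodium and calcium channel genes 5 higher (median 0.28) and of 21 glutamate receptor genes 5 higher (median 0.25), with 0 lower in each. Syt7, a slow calcium sensor of release, had 299, 306 and 289 CPM unsorted and 545 CPM sorted (0.90, SE 0.0856, adjusted p = 2.63e-17). Grin2b, an NMDA receptor subunit, had 705, 742 and 750.1 CPM unsorted and 1191 CPM sorted (0.73, SE 0.0760). The sorted value was above all unsorted ones in both genes. In the interaction test described below, edgeR called 0 of 31 vesicle release, 1 of 52 potassium channel (Kcnip1), 0 of 29 sodium and calcium channel and 0 of 23 glutamate receptor genes different from the other excitatory neurons. At an unadjusted p under 0.05 were 5, 6, 3 and 1. Over all genes 0.0987% were called higher and 0.247% lower, so counts this low settle nothing for lists of this size. In the sort test, edgeR called 0 of 14 GABA receptor genes (7 at an unadjusted p under 0.05).

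Other lists held genes on both sides or few calls. Of 14 cytoskeletal genes 1 was higher and 4 lower, among them Stmn3 (1283 ± 34.4 CPM unsorted, SD, n = 3, and 595 CPM sorted, -1.08) and Tubb2a (-1.10), of 18 peptide and receptor genes 2 were higher (Cckbr and Ntsr1) and 4 lower (Vip, Sst, Cck and Grp), and of 38 transcription factors 5 were higher and 1, Neurod6, lower (-0.63). Vip and Sst are peptides of interneurons, and beside them the summed inhibitory markers were 5.96 to 12.3 CPM unsorted and 0.982 sorted, with a like drop in the other excitatory neurons (13.4 to 14.97 and 2.31). Cck, a peptide gene that many cortical cells express, had 765, 686 and 706 CPM unsorted and 256 CPM sorted (-1.46, SE 0.0956). Bc1, a noncoding RNA of dendrites, had 212, 219.9 and 274 CPM unsorted and 1092 CPM sorted, the clearest increase among the 5 genes of largest increase (2.25, SE 0.0826, adjusted p = 4.17e-57). The other 4 (Gm26821, Gm48004, Gzmm and Shpk) stayed below 10 CPM. The 5 genes of largest decrease, C1qb, Fam122b, Gm3636, Nptx2 and Ptgds, had 0 UMIs in the sorted neurons, which at a floor of 3 UMIs is at least 3.51-, 3.33-, 4.09-, 4.06- and 2.90-fold lower. C1qb is a microglial marker, and beside it the summed microglial markers were 9.02 to 15.3 CPM unsorted and 1.47 sorted, with a like drop in the other excitatory neurons (12.0 to 15.1 and 1.68).

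**Figure D5:**
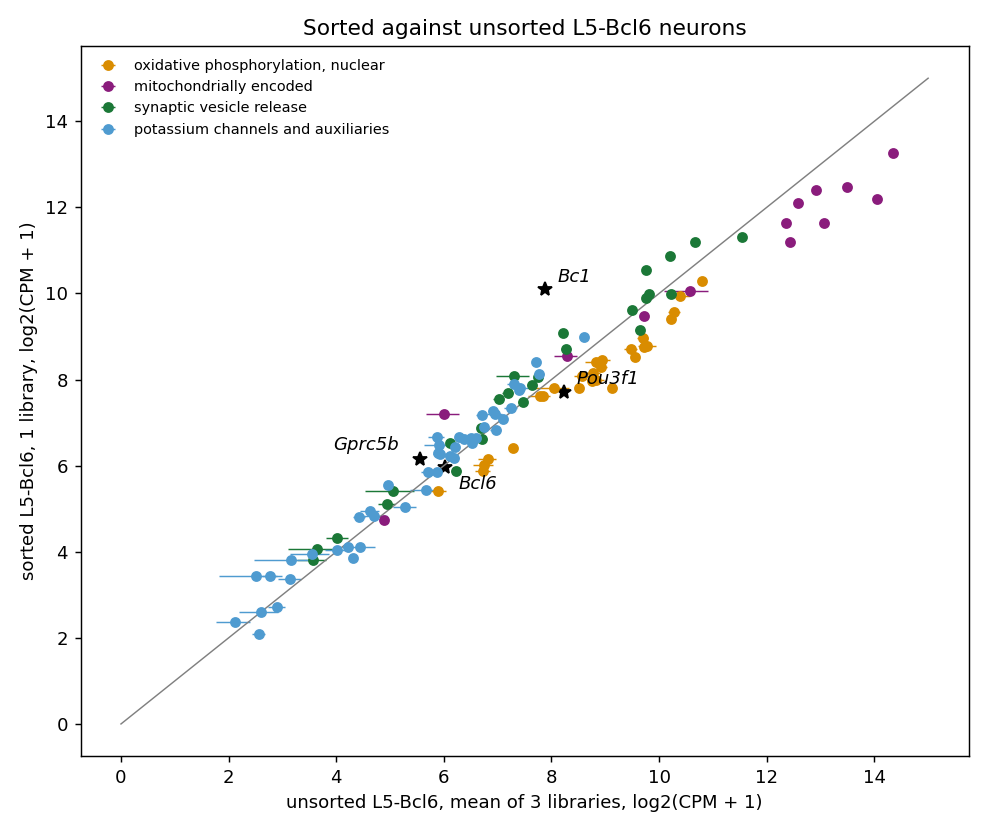
Levels of 4 gene lists in L5-Bcl6 neurons, sorted (vertical axis, 1 library) against unsorted (horizontal axis, mean of 3 libraries with SD bars), both log2 of CPM + 1, with the line of equality and 4 genes named. Nuclear oxidative phosphorylation genes lie mostly below the line (17 of 26 called lower), 7 of 26 vesicle release genes were called higher, and Bcl6 lies on it.

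Whether the sort difference was particular to L5-Bcl6 was tested as an interaction against the other excitatory neurons. Of 16208 genes 16 (0.0987%) had a higher and 40 (0.247%) a lower difference in L5-Bcl6 (edgeR quasi-likelihood test, same limits), with a median of -0.06. DESeq2 called 1 higher and 16 lower. Of the 106 leading genes 3 were called higher (Gprc5b, Ndnf and Zic1) and 0 lower. Without scaling between libraries, Gprc5b had 45.9, 48.9 and 40.6 CPM unsorted and 74.6 CPM sorted in L5-Bcl6, while in the other neurons it had 1.28, 1.63, 1.29 and, sorted, 1.07 CPM (interaction 1.08, SE 0.295, adjusted p = 0.0393). The difference thus ran in opposite directions inside and outside L5-Bcl6. The call was lost without L5-Htr2c (1.04, adjusted p = 0.0658) and against L5-S100b alone (1.79, adjusted p = 0.608), although neither value was near 0. The call of Ndnf held without L5-Htr2c (adjusted p = 0.0258) and was lost against L5-S100b alone (0.08, adjusted p = 1.0). Most called genes were scarce, and 4 L5-Htr2c cells remained in the sorted library. Calls without that subtype were 10 higher and 37 lower, and against L5-S100b alone 13 and 2. The causes of these changes were not tested.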

How the data were processed

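Excitatory neurons of 3 unsorted libraries and 1 sorted library were analysed. The authors aligned 10x Genomics 3' (v3) reads with Cell Ranger, at its default parameters for demultiplexing, to mm10 with the viral barcodes added and deposited UMI counts per gene and cell (raw, not normalized), together with a cell annotation made in Seurat 3.1.4 (scaling, principal components) and Scanpy (Leiden clustering). They kept cells with 500 to 8000 genes and 1000 to 60000 UMIs and regressed out UMIs, genes, mitochondrial share and sort before clustering; they removed clusters of low quality or with non-neuronal markers, and no doublet caller was run here. The deposited annotation also gives the mitochondrial share of each cell as a percent, which was computed anew from the counts. Whether counting used strand is not given in the sources used here.

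From these files, counts were summed per library and subtype. edgeR 4.0.16 (R 4.3.3) was fitted with TMM factors, filterByExpr and a library block to L5-Bcl6 and the rest (8 sums), to 7 subtypes (28 sums) and, without a block, to the 4 L5-Bcl6 sums. Levels are CPM with TMM factors of the 28 sums. Log2 differences within single libraries use a prior count of 2, and fitted folds the default prior of edgeR. A lead is the smallest fitted log2 difference to the 6 other subtypes. Calls against the other excitatory neurons needed a fitted log2 difference of at least 1 and the same direction in 4 of 4 libraries. Leads needed at least 1, and tests an adjusted p under 0.05 and at least 0.5, on the log2 scale. DESeq2 1.42.0 was the alternative test. Shares and medians per cell were compared over libraries by exact sign-flip permutation (scipy 1.17.1), and thinned cells held 10000 UMIs. Microglia were barcodes outside the annotation within these cell limits, with under 20% mitochondrial UMIs, 5 or more UMIs of microglial markers and no Slc17a7 UMI. The edgeR comparisons were tested on simulated counts, drawn with the same mean profile for all subtypes and the same spread for sorted and unsorted libraries. The simulation therefore cannot show whether the sorted library varies like the unsorted ones. Genes were located with GENCODE vM21 (16191 of 16216 IDs matched).

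The genes named are those that name subtypes or layers and the 12 of largest lead at 20 CPM or more. Further ones are the 8 farthest below, at 20 CPM or more on average over all sums. Lists gave up to 4 members or members with a known role, and the sort tests the 5 of largest change each way. The members and lists were chosen with earlier results of these data known. Antisense, overlapping and near-identical genes can share reads. A few members of these lists are counted with their list but not reported here by name. Viral barcodes were pooled into 1 feature and projection targets were not analysed here. The closing section gives the effect of the alternatives (size factors of DESeq2, no filter, left-out libraries, no cells above the 95th UMI percentile, other limits, equal weights).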

Additional observations from a re-analysis of the deposited data

Results flagged for a closer look

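The sort difference of 15 named genes in L5-Bcl6 differed from that in the other excitatory neurons by the interaction test (edgeR quasi-likelihood, adjusted over 16208 genes), which is what set them apart. Values are log2 interactions, positive where sorted cells of L5-Bcl6 were higher relative to unsorted ones than in the other neurons. DESeq2 also called Lypd1 and Tubb2a, and it gave no adjusted p, and so no call, for the others.

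In 5 genes the interaction was positive and large. Cenpf had 5.13 (adjusted p = 0.00480), with 1, 0 and 0 UMIs in unsorted L5-Bcl6 and 13 in the sorted neurons, all 13 in 1 cell. Tshz2 had 3.86 (adjusted p = 2.08e-06), and its 13 sorted UMIs also came from 1 cell. Kcnip1 had 4.12 (adjusted p = 1.78e-09, 15, 13, 14 and, sorted, 21 UMIs) and Mirt1 3.50 (adjusted p = 0.0235, 4, 6, 3 and 7 UMIs). L5-Htr2c held 80.4% (Tshz2), 85.4% (Kcnip1) and 84.0% (Mirt1) of the unsorted UMIs of the other neurons, and only 4 of its cells were in the sorted library. Without L5-Htr2c the adjusted p was 0.0887, 0.235 and 0.863. Ndnf had 3.37 (adjusted p = 0.0207), with 66, 36, 49 and, sorted, 54 UMIs in L5-Bcl6 and 16, 36, 8 and 2 in all other neurons, but 0.08 (adjusted p = 1.0) against L5-S100b alone.

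In 3 further genes it was smaller. Gprc5b had 1.08 (adjusted p = 0.0393). It was not called without L5-Htr2c (1.04, adjusted p = 0.0658) or against L5-S100b alone (1.79, adjusted p = 0.608), although neither value was near 0. Sox5, a transcription factor of deep layers, had 0.57 (adjusted p = 0.0340) and Lypd1 0.86 (adjusted p = 1.56e-37). L5-Htr2c held 37.6% of the unsorted Lypd1 UMIs of the other neurons, and without it the Lypd1 value was 0.28 (adjusted p = 0.00439), under the size limit.

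In 7 genes the interaction was negative. Tubb2a, a tubulin, had -0.53 (adjusted p = 0.00113), Sema3c -1.53 (adjusted p = 0.00249), and the inducible genes Ptgs2 and Klf4 -3.06 and -3.19 (adjusted p = 0.0141 and 0.00438). Ptgs2 had 11, 2 and 29 UMIs in unsorted and 2 in sorted L5-Bcl6, with 22 of the 29 in 1 cell, and Klf4 had 31, 15 and 14 and, sorted, 2. Fam122b (10, 17 and 9 UMIs unsorted), Gm3636 (21, 16 and 9) and Nptx2 (21, 4 and 20) had 0 UMIs in sorted L5-Bcl6, where their fitted values of -10.07, -10.22 and -10.87 depend on the prior count and are no bound. In the other neurons Nptx2 had 28.5, 28.3 and 33.0 CPM unsorted and 43.4 CPM sorted. Against L5-S100b alone, Sox5, Gm3636 and Nptx2 were called and the other 12 of the 15 genes were not. Of these 12, Ndnf (0.08) and Lypd1 (-0.014) were near 0. The rest kept their sign: Cenpf 3.61, Mirt1 3.10, Tshz2 2.28, Gprc5b 1.79, Kcnip1 1.44, Tubb2a -0.42, Sema3c -1.19, Ptgs2 -2.63, Klf4 -2.71 and Fam122b -7.74.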

How the results depend on the processing

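Limits are set by the single sorted library, which was assumed to vary like the unsorted ones, by 382 neurons, whose genes near 1 CPM rest on a few UMIs, and by the unequal sizes of the other subtypes. Against other excitatory neurons, 1310 genes were higher and 2633 lower at a limit of 0.5, 230 and 806 at a limit of 2, 3274 lower with no filter and 857 lower with equal weights, where S100b (0.31), Chrna5 (0.092) and Sema3c (0.15) reversed. Without the library as a replicate block, 625 were higher and 1406 lower; the sort test has no pairs. Leaving out 1 library gave 706 to 757 higher and 1576 to 1629 lower. Genes leading were 523 with no filter and 97 to 109 with 1 library left out, and genes below every other subtype 555 with no filter, 382 without L5-Htr2c and 225 to 260 with 1 library left out. In the sort test DESeq2 called 207 higher and 519 lower, and leaving out 1 unsorted library gave 535 to 563 and 886 to 942. In the interaction DESeq2 called 1 higher and 16 lower (312 at an unadjusted p under 0.05). Without unsorted replicate 3 the higher calls were 10 (10 to 15 higher and 38 to 54 lower with 1 unsorted library left out). Chosen after seeing the data, a rest without L5-Htr2c gave 10 higher, and L5-S100b alone gave 2 lower and reversed Lypd1 (-0.014). The causes were not tested. Over all alternatives 81 counts and shares stayed within their limits and 16 moved. The sorted library could not be left out of the sort tests.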
